A study of Mus musculus with 7 samples.

Results

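The nuclear genes for the subunits of the respiratory chain and of ATP synthase were compared between hematopoietic stem cells (HSCs) with and without Cebpa, which encodes the myeloid transcription factor C/EBPα. The genes were chosen by symbol alone: those whose symbol begins with Nduf, Uqcr, Atp5 or Cox4 to Cox8, together with Sdha, Sdhb, Sdhc, Sdhd and Cyc1, as far as a probe set of the array was annotated to that gene and no other. This gave 90 genes of the 19938 genes measured. They comprised 34 subunits and 7 assembly factors of complex I, 4 genes of complex II, 9 of complex III, 18 of complex IV and 17 of complex V, and Ndufa4l2 was placed in no complex. Symbols beginning with Ndufaf denote assembly factors and not subunits, so they were kept apart. Another 6 probe sets, for Cox7c, Ndufb4 and Ndufs5, were annotated to a second gene as well and were not used, and Ndufs5 was read from another probe set.

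Both groups consisted of adult female C57BL/6 mice homozygous for a floxed Cebpa allele, whose loxP sites lie on either side of nearly all of the transcribed gene. All mice were injected with pIC, an inducer of interferon, and were killed at day 18. The Cebpa fl/fl group (3 arrays) carried the floxed alleles alone, and the Cebpa Δ/Δ group (4 arrays) also carried Mx1Cre, a Cre recombinase under an interferon-responsive promoter that acts in many cell types besides HSCs. HSCs were sorted from bone marrow as Lin-, Sca1+, cKit+, CD150+ and CD48- cells, and amplified RNA was hybridised to Affymetrix arrays that read probes along the whole transcript. The series counts as many mice as arrays, whereas the labels speak of triplicates. Each p-value therefore measures the spread between these arrays.

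The respiratory chain passes electrons from NADH (complex I) and succinate (complex II) by way of ubiquinone, complex III and cytochrome c to oxygen at complex IV. Complexes I, III and IV pump protons across the inner mitochondrial membrane, and ATP synthase, here complex V, uses their return to make ATP. Complexes I, III, IV and V also hold subunits encoded in mitochondrial DNA, which were not analysed here, whereas complex II is wholly nuclear-encoded. Resting HSCs are known for a low reliance on oxidative phosphorylation, and exit from quiescence and differentiation are accompanied by greater mitochondrial activity.

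Promoters of 4 of the genes described below are shown first because these genes had an unadjusted p under 0.05 in the comparison below and each holds a short motif known from promoters of this gene class or a C/EBP motif. RefSeq gave 78 promoters for 73 of the 90 genes on the assembly GRCm38.p6, each from 250 bases before to 50 bases after a transcription start. The 250 bases before the start are printed from 5′ to 3′ on the gene's own strand, and capitals mark the matches described after them.
Cox6a1, chr5:115348959-115349208, minus strand: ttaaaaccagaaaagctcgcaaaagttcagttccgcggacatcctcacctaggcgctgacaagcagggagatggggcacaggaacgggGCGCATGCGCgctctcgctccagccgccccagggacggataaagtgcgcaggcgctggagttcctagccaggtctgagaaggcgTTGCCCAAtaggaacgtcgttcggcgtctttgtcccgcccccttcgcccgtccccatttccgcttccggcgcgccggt
Ndufa8, chr2:36049339-36049588, minus strand: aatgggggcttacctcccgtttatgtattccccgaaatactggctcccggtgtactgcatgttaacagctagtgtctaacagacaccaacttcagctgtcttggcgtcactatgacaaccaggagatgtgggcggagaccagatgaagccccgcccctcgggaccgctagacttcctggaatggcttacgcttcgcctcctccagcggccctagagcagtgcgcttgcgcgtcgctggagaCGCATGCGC
Uqcrh, chr4:116075071-116075320, minus strand: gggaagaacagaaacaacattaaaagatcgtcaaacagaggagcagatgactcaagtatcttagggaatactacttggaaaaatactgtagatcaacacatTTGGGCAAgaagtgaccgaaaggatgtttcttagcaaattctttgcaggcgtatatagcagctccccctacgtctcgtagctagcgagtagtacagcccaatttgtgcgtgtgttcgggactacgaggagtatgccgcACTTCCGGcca
Atp5h, chr11:115419920-115420169, minus strand: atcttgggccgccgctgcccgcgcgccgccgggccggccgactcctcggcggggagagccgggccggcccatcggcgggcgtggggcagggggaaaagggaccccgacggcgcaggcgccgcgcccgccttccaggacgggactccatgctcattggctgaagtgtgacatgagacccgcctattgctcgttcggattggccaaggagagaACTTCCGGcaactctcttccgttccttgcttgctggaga

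Promoters were searched on both strands for the motifs of NRF1 (GCGCATGCG), GABP, also called NRF2 (CCGGAAGT), YY1 (AAGATGGCG) and C/EBP factors (TTGCNNAA). NRF1, GABP and YY1 are known as regulators of nuclear genes for mitochondrial proteins. The NRF1 letters overlap their own reverse complement, so a palindromic copy counts on both strands. The Cox6a1 promoter held such an NRF1 copy beginning 162 bases before the start and a C/EBP match at 78 bases, and that of Ndufa8 an NRF1 match at 9 bases. The Uqcrh promoter had a C/EBP match at 149 bases and a GABP match at 11 bases, and that of Atp5h a GABP match at 39 bases. NRF1 letters stood in 10 of the 78 promoters (12.8%), against 2.54% of the 19177 promoters of all genes measured. YY1 letters were found in 7 promoters (8.97% against 1.93%), GABP letters in 5 (6.41% against 5.41%) and C/EBP letters in 10 (12.8% against 9.75%). Among the 13 promoters of genes with such a p, NRF1, GABP and C/EBP letters each stood in 2 and YY1 letters in 1. A match describes these letters in this window and no binding.

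Respiratory chain genes lay slightly higher in Cebpa Δ/Δ than in Cebpa fl/fl HSCs, with the highest medians in complexes I and III, and no single gene passed the test after adjustment. The log2 difference, Δ/Δ minus fl/fl, was above 0 for 81 of the 90 genes, with a median of 0.20 or 1.15-fold, whereas 9978 of all 19938 genes lay above 0. At an unadjusted limma p under 0.05, 13 of the 90 genes were higher (14.4%, against 4.4% of all genes) and 1 was lower (1.11%, against 3.08%). Cox4i2 was the gene that was lower. The adjusted p, by limma with Benjamini-Hochberg over all genes, was 0.412 for Cox4i2 and at least 0.614 for the other 89. Differences were small, with a median size of 0.22 regardless of sign, against 0.093 over all genes. None of the 90 genes (0) passed the study's own thresholds, which add a change over 1.5-fold to the unadjusted p and were passed by 1.57% of all genes upward and 0.617% downward. Genes of high signal lay slightly upward as a class: among the 1994 genes in the top 10% of mean levels, 1144 lay above 0, with a median of 0.036, and 8.98% were higher at an unadjusted p under 0.05. In bulk RNA, fewer cells of a type and less RNA per cell cannot be told apart.

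**Figure D1:**
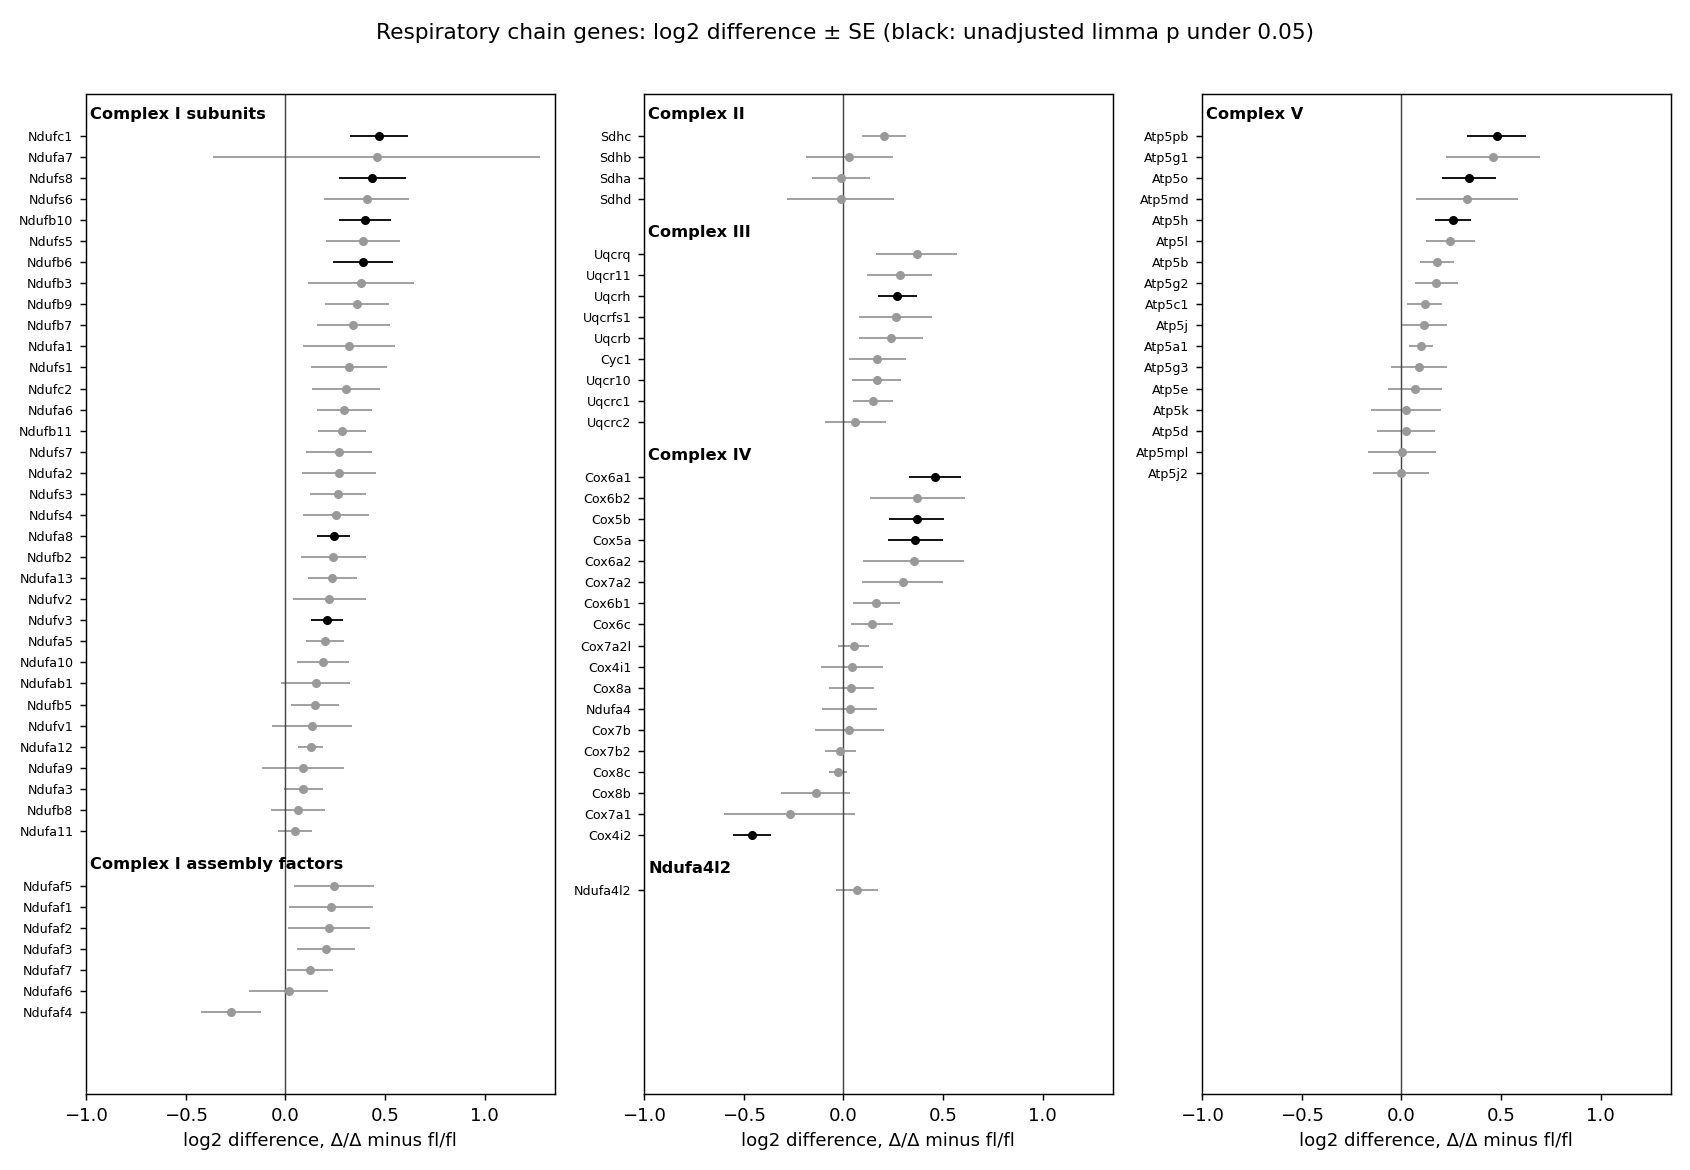
Log2 difference (Cebpa Δ/Δ minus Cebpa fl/fl, x axis) of each of the 90 genes, grouped by complex. Points are differences, bars are the SE of the limma fit, and black marks an unadjusted p under 0.05. All 34 complex I subunits lie to the right of 0, the 4 genes of complex II lie around it, and Cox4i2 in complex IV lies farthest to the left.

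The count of genes depended strongly on single arrays. It was 1 without Cebpa fl/fl 3, 6 without fl/fl 1, 25 without fl/fl 2, 6 without Δ/Δ 1, 7 without Δ/Δ 2, 9 without Δ/Δ 3 and 16 without Δ/Δ 4. Without fl/fl 3 the share of the 90 genes (1.11%) was below the share of all genes (3.46%). The median of the 90 genes stayed between 0.15 and 0.24 over these 7 fits, and 73 to 84 of the 90 lay above 0. Cox4i2 and Cox6a1 kept an unadjusted p under 0.05 in all 7, and each of the other 12 genes in 1 to 5 of them.

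Scores show which arrays carried the shift. A score takes each gene's log2 value relative to its own mean across all 7 arrays and averages this over the genes of a group. For all 90 genes the 3 fl/fl arrays had scores of -0.12, -0.014 and -0.18, in replicate order, and the 4 Δ/Δ arrays had 0.22, -0.015, 0.19 and -0.082. Δ/Δ 1 and Δ/Δ 3 were thus high, while Δ/Δ 2 and Δ/Δ 4 lay at or below fl/fl 2, so that the genotypes overlapped. The same arrays stood out in the erythroid markers, whose score was -1.54, -0.67 and -1.40 in fl/fl and 1.41, 0.43, 1.26 and 0.51 in Δ/Δ, and in genes of cycling cells, with -0.28, -0.043 and -0.39 against 0.42, 0.095, 0.31 and -0.12. Of the 9 erythroid markers measured, 9 were higher at an unadjusted p under 0.05, and their summed intensity ran from 702 to 1186 in fl/fl and from 2550 to 4948 in Δ/Δ. Of the 7 cycling genes measured, 3 were higher, and their sum ran from 3765 to 4453 against 4203 to 5840. Their part in the respiratory chain difference was not tested. Of the arrays, fl/fl 1 and Δ/Δ 3 had the lowest mean correlations with the others, both 0.979. Their limma array weights were also the lowest, at 0.54 and 0.68 against 1.07 to 1.44. With these weights the median of the 90 genes was 0.19, and 12 were higher at an unadjusted limma p under 0.05.

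**Figure D2:**
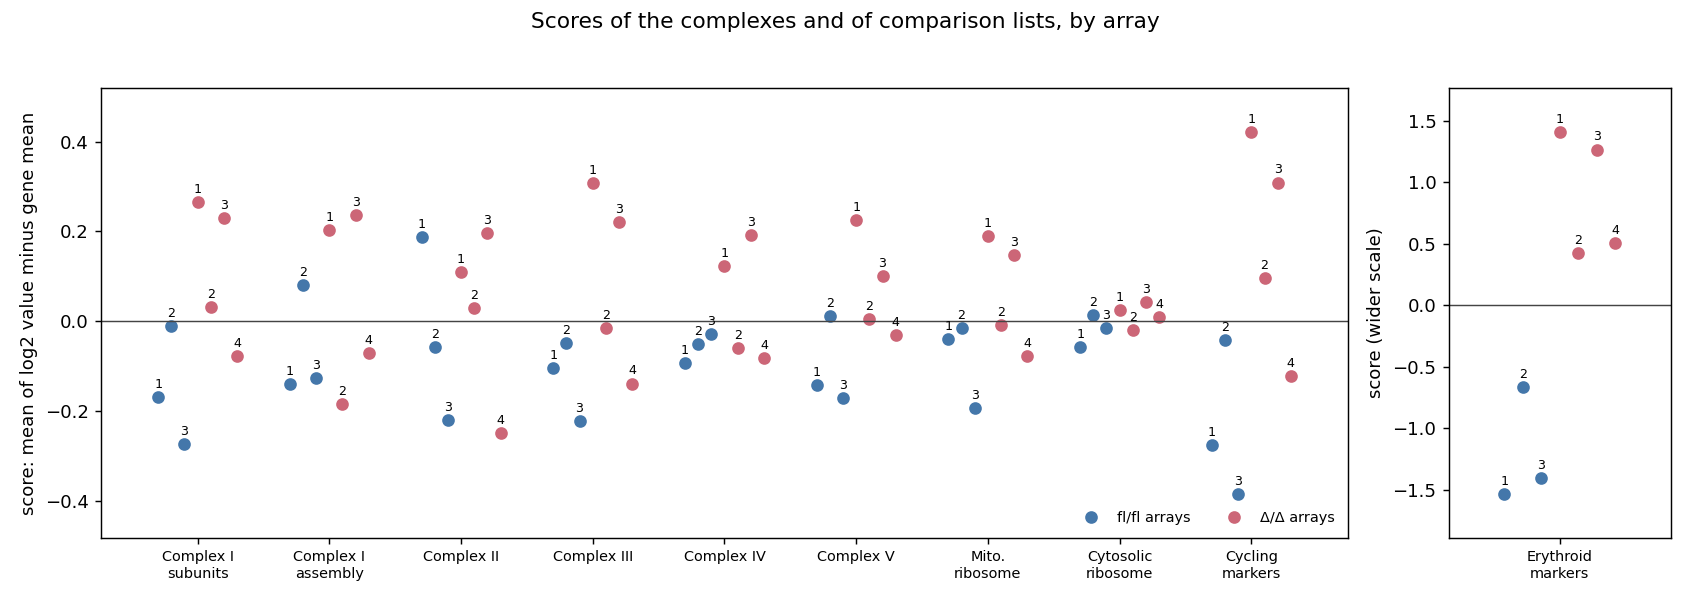
Score per array (mean log2 value minus gene mean) for the complexes, both ribosomes, cycling genes and, on a wider scale, erythroid markers. Each point is 1 array, numbered by replicate, in blue for Cebpa fl/fl and red for Cebpa Δ/Δ. Δ/Δ 1 and Δ/Δ 3 are highest for complex I subunits, complex III and complex IV, and fl/fl and Δ/Δ arrays overlap in every complex.

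Complex I oxidises NADH and is the largest of the complexes. The log2 difference was above 0 for 34 of its 34 subunits, with a median of 0.27 and a range from 0.048 (Ndufa11) to 0.47 (Ndufc1). Of these, 6 were higher at an unadjusted p under 0.05 and 0 were lower, and in 4 (Ndufc1, Ndufa8, Ndufv3 and Ndufa12) every Δ/Δ array lay above every fl/fl array. Such separation upward was seen in 6 of all 90 genes, and in 3.51% of all genes measured. The 6 core subunits, which carry the cofactors and have relatives in bacteria, had a median of 0.27, and the 28 accessory subunits a median of 0.26. Scores of the 34 subunits were -0.17, -0.011 and -0.27 in fl/fl and 0.27, 0.032, 0.23 and -0.076 in Δ/Δ, so that Δ/Δ 4 lay below fl/fl 2. Over all alternative settings, 32 to 34 of the subunits lay above 0.

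Ndufc1, a small accessory subunit in the membrane arm, measured 8.81, 9.07 and 8.74 in the fl/fl arrays and 9.45, 9.16, 9.61 and 9.14 in the Δ/Δ arrays, on the log2 scale and in replicate order, as all values below. Its lowest Δ/Δ array lay just above its highest fl/fl array. The log2 difference was 0.47 (SE 0.15) with an unadjusted p of 0.016, and a second probe set gave 0.58. Ndufb10, another accessory subunit of the membrane arm, was 8.85, 9.20 and 8.87 in fl/fl and 9.62, 9.20, 9.32 and 9.34 in Δ/Δ. Here fl/fl 2 reached the lowest Δ/Δ array, with a log2 difference of 0.40 (SE 0.13) and an unadjusted p of 0.021. Ndufa8, an accessory subunit on the intermembrane side, measured 7.86, 8.03 and 7.84 in fl/fl and 8.24, 8.25, 8.05 and 8.05 in Δ/Δ. The genotypes were separated by a narrow gap, for a difference of 0.24 (SE 0.08) and an unadjusted p of 0.026. Ndufs8, a core subunit with iron-sulfur clusters on the path to ubiquinone, was 8.05, 8.71 and 8.42 in fl/fl and 9.01, 8.91, 8.71 and 8.69 in Δ/Δ. Its spread in fl/fl was wide, and fl/fl 2 lay within the Δ/Δ range. Its log2 difference was 0.44 (SE 0.17), and 0.27 without fl/fl 1.

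Ndufb6, an accessory subunit of the membrane arm, had values of 8.89, 8.95 and 8.65 in fl/fl and of 9.43, 9.20, 9.37 and 8.88 in Δ/Δ. The groups overlapped through Δ/Δ 4, and the log2 difference was 0.39 (SE 0.15). Ndufv3, an accessory subunit of the NADH-oxidising arm, was 8.42, 8.51 and 8.37 in fl/fl and 8.82, 8.62, 8.58 and 8.54 in Δ/Δ. These arrays did not overlap, at a log2 difference of 0.21 (SE 0.08). Ndufa12 also did not overlap, with fl/fl arrays from 9.43 to 9.55 and Δ/Δ arrays from 9.56 to 9.74, although its unadjusted p was 0.091. The 28 subunits of complex I that missed an unadjusted p of 0.05 had log2 differences from 0.048 to 0.46. The upper end belonged to Ndufa7, where a single array (Δ/Δ 3) measured 11.35 and the other 6 lay between 8.11 and 9.11. For Ndufb11 the probe set of higher signal gave 0.28, while a second probe set gave -0.0060, and for Ndufa11 they gave 0.048 and -0.058.

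The 7 assembly factors, which help to build complex I and are not part of it, had a median log2 difference of 0.20, and 0 of them had an unadjusted p under 0.05. The median was 0.11 without fl/fl 1 and 0.12 without Δ/Δ 1. Ndufaf4 was the member below 0, at -0.27 (95% confidence interval -0.63 to 0.09). It measured 7.70, 8.14 and 7.75 in fl/fl and 7.75, 7.49, 7.77 and 7.36 in Δ/Δ, with overlap of the arrays. Its partner in assembly, Ndufaf3, was at 0.20 (-0.14 to 0.55) and at 0.031 without fl/fl 1, and Ndufaf5, which modifies a core subunit, at 0.24 (-0.24 to 0.73).

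Complex II couples the citric acid cycle to the chain by oxidising succinate, and its 4 genes showed no common direction, with a median that ran from -0.089 to 0.13 when each array was left out. Sdha, the flavoprotein, had a log2 difference of -0.013 (95% confidence interval -0.36 to 0.33), with 9.48, 9.23 and 8.95 in fl/fl and 9.27, 9.24, 9.33 and 8.98 in Δ/Δ. Sdhb, the iron-sulfur subunit, was at 0.030 (-0.49 to 0.55). The membrane anchors Sdhc and Sdhd were at 0.20 (-0.06 to 0.47) and -0.014 (-0.66 to 0.63). These 4 intervals hold both 0 and the median of complex I. Scores of the 4 genes were 0.19, -0.057 and -0.22 in fl/fl and 0.11, 0.030, 0.20 and -0.25 in Δ/Δ, with the highest and lowest arrays of both genotypes close together. A difference between complexes was not tested.

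Complex III takes electrons from ubiquinone to cytochrome c. The log2 difference was above 0 for 9 of its 9 genes, with a median of 0.24. With any 1 array left out, 8 or 9 of them lay above 0, and the median ran from 0.18 to 0.29. At an unadjusted p under 0.05, 1 of them was higher. This was Uqcrh, the hinge protein that helps cytochrome c to dock, with 10.49, 10.74 and 10.61 in fl/fl and 11.04, 10.93, 10.87 and 10.70 in Δ/Δ. Only Δ/Δ 4 lay within the fl/fl range, and the log2 difference was 0.27 (SE 0.10) with an unadjusted p of 0.031. Of the small accessory subunits, Uqcrq was at 0.37 (95% confidence interval -0.12 to 0.85) and Uqcr11 at 0.28 (-0.11 to 0.67). Cyc1, which carries the heme of cytochrome c1, was at 0.17 (-0.17 to 0.51), and the other catalytic nuclear subunit, Uqcrfs1, at 0.26 (-0.18 to 0.70). The lowest value, 0.061, was that of the core protein gene Uqcrc2. Scores of complex III were -0.10, -0.049 and -0.22 in fl/fl and 0.31, -0.015, 0.22 and -0.14 in Δ/Δ.

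**Figure D3:**
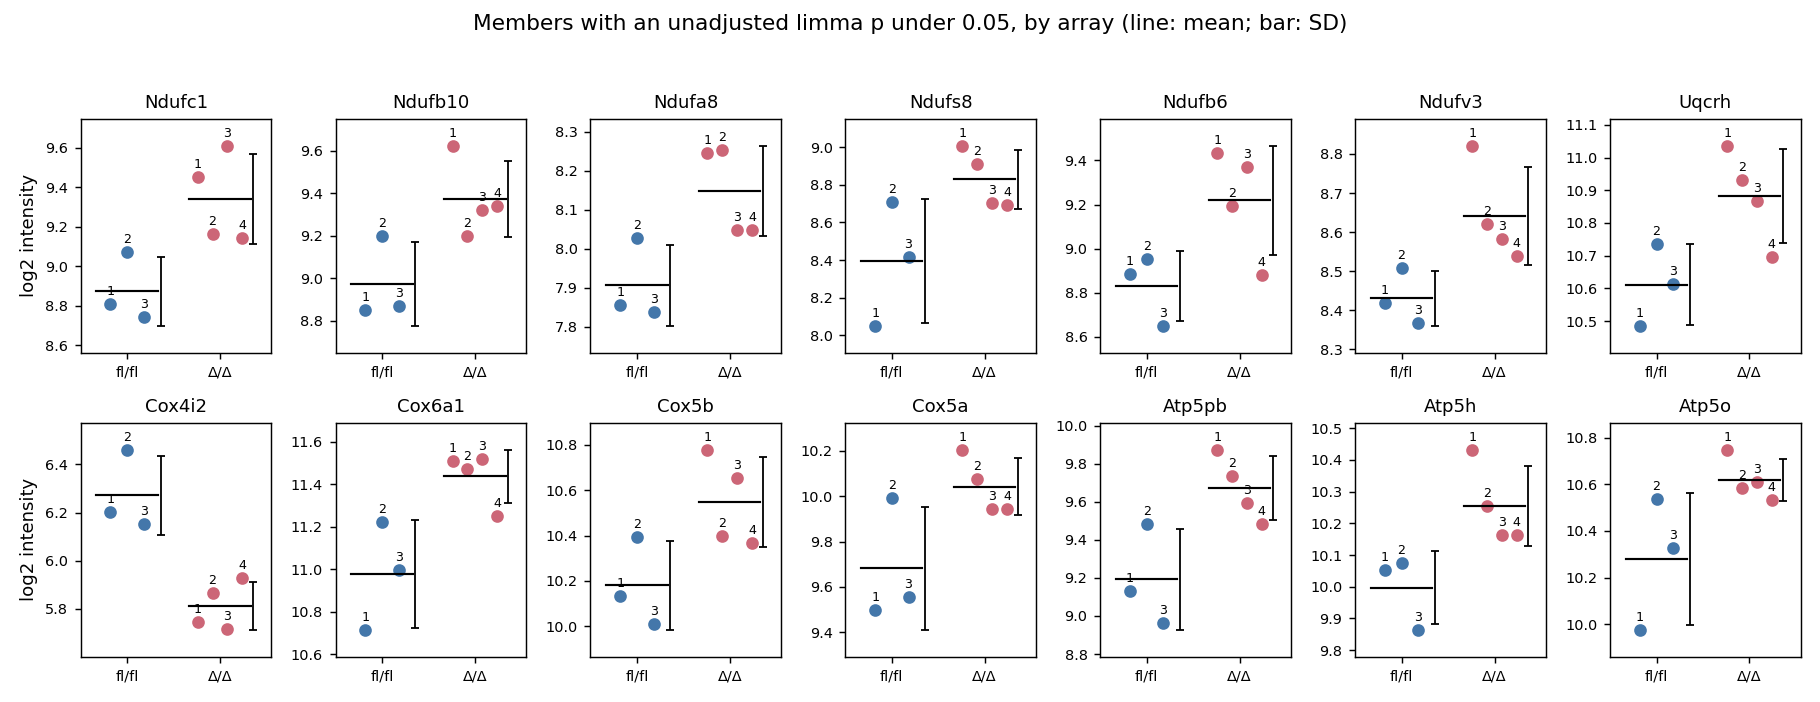
Log2 intensity (y axis, a separate range in each panel) of the 14 genes with an unadjusted p under 0.05, by array. Points are arrays numbered by replicate, blue for Cebpa fl/fl and red for Cebpa Δ/Δ, lines are means and bars are SD. In every panel fl/fl 2 is the highest fl/fl array, which in most of the 13 higher genes lies near the lowest Δ/Δ arrays, and in Cox4i2 all Δ/Δ arrays lie below all fl/fl arrays.

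Complex IV, cytochrome c oxidase, reduces oxygen, and several of its small subunits exist in isoforms for different tissues. All 11 broadly expressed genes had a log2 difference above 0, from 0.030 to 0.46 with a median of 0.14. The 7 tissue-restricted isoforms ranged from -0.46 to 0.37 with a median of -0.029, and 2 of them were above 0. When each array was left out, 7 (without Δ/Δ 3) to 11 of the 11 broadly expressed genes lay above 0, with medians from 0.064 to 0.21. Without fl/fl 3 the counts above 0 were 9 of 11 and 5 of 7, with medians of 0.14 and 0.063. Of the 7 tissue-restricted genes, 4 had a mean signal not above the median of all genes. A difference between these classes was not tested. Over the 18 genes the median was 0.049, running from 0.029 to 0.13 when each array was left out, and 3 genes were higher and 1 lower with an unadjusted p under 0.05.

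Cox6a1, the common isoform of subunit 6a, had the smallest p of the higher genes. It measured 10.72, 11.22 and 11.00 in fl/fl and 11.51, 11.47, 11.52 and 11.25 in Δ/Δ, and the arrays did not overlap. The log2 difference was 0.46 (SE 0.13), or 1.37-fold, with an unadjusted p of 0.012. An exact two-sided permutation test over the 35 splits of the 7 arrays gave p = 0.0286, the smallest it can give. This test gave the same p for Ndufc1, Ndufa8 and Atp5h. The Cox6a1 difference lay between 0.33 and 0.58 in the 7 fits that each left out 1 array. The muscle isoform Cox6a2 was at 0.35 (95% confidence interval -0.26 to 0.97), its highest array (7.25) being Δ/Δ 3.

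Cox5b and Cox5a, which encode nuclear subunits close to the catalytic core, were also higher. Cox5b measured 10.14, 10.40 and 10.01 in fl/fl and 10.78, 10.40, 10.65 and 10.37 in Δ/Δ. Cox5a measured 9.50, 9.99 and 9.55 in fl/fl and 10.20, 10.08, 9.94 and 9.94 in Δ/Δ. In both genes fl/fl 2 lay within the Δ/Δ range. The log2 differences were 0.37 (SE 0.14) and 0.36 (SE 0.14), and a second probe set of Cox5b gave 0.43.

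Cox4i2 was the gene with the smallest unadjusted p of the 90, at 0.0024, and was lower in Cebpa Δ/Δ. It encodes an alternative isoform of subunit 4 that is known from lung and from the response to low oxygen. Its log2 values were 6.20, 6.46 and 6.15 in fl/fl and 5.74, 5.87, 5.72 and 5.93 in Δ/Δ, so that the groups did not overlap. This is a low signal: its mean of 6.01 lay just above the median of all genes (5.86), and its Δ/Δ mean of 5.81 below it. The log2 difference was -0.46 (SE 0.10; 95% confidence interval -0.69 to -0.23), and the exact two-sided permutation test again gave its smallest p of 0.0286. Separation downward was seen in 1 of the 90 genes and in 2.46% of all genes measured. The difference stayed between -0.52 and -0.37 when any 1 array was left out. The common isoform Cox4i1 was at 0.045 (-0.33 to 0.42), with 10.28, 9.88 and 10.01 in fl/fl and 10.10, 9.92, 10.44 and 9.94 in Δ/Δ.

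The other isoform families of complex IV held no gene with an unadjusted p under 0.05. The common Cox6b1 was at 0.17 and Cox6b2, known as the testis isoform, at 0.37. The mean signal of Cox6b2 here was nonetheless high, at 9.24, above that of 96% of all genes. Cox7a2, Cox7a2l, which takes part in joining complexes into supercomplexes, and the muscle isoform Cox7a1 were at 0.30, 0.053 and -0.27. Cox7a1 was set by fl/fl 3, which measured 6.26 against 4.83 to 5.15 in the other 6 arrays, and without it the difference was 0.17. Cox7b and Cox7b2 were at 0.030 and -0.015, and Cox8a, Cox8b and Cox8c at 0.041, -0.14 and -0.029. Cox7a1, Cox7b2, Cox8b, Cox8c and Ndufa4l2 were the 5 genes of the 90 whose mean signal was not above the median of all genes. Ndufa4, named for complex I but a subunit of complex IV, was at 0.032, and its relative Ndufa4l2, known as a gene induced by low oxygen, was at 0.069 (-0.19 to 0.32).

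Complex V makes ATP in its F1 head, which is joined by stalks to a rotor ring in the membrane. The log2 difference was above 0 for 16 of its 17 genes, with a median of 0.12. Over the 7 fits that each left out 1 array, 12 (without Δ/Δ 1) to 17 (without Δ/Δ 4) of these genes lay above 0. The median ran from 0.11 without Δ/Δ 1 to 0.18 without fl/fl 2. At an unadjusted p under 0.05, 3 genes were higher. These 3 encode subunits of the peripheral stalk. Atp5pb, the b subunit, measured 9.13, 9.48 and 8.96 in fl/fl and 9.87, 9.74, 9.59 and 9.48 in Δ/Δ. The highest fl/fl array and the lowest Δ/Δ array touched, at a log2 difference of 0.48 (SE 0.15) and an unadjusted p of 0.016. A second probe set gave only 0.20 (SE 0.16), with an unadjusted limma p of 0.26 in a fit over all probe sets. Atp5h, the d subunit, was 10.05, 10.07 and 9.86 in fl/fl and 10.43, 10.26, 10.16 and 10.16 in Δ/Δ. All Δ/Δ arrays lay above all fl/fl arrays, at a difference of 0.26 (SE 0.09). Its other probe sets gave 0.20 and 0.19, with unadjusted limma p of 0.079 and 0.092 in the fit over all probe sets. Atp5o, which joins the peripheral stalk to F1, was 9.98, 10.54 and 10.33 in fl/fl and 10.75, 10.59, 10.61 and 10.53 in Δ/Δ. Its fl/fl arrays spread widely, and fl/fl 2 reached the lowest Δ/Δ array, at a difference of 0.34 (SE 0.14). Without fl/fl 1 it was 0.19, and its unadjusted p was under 0.05 in 1 of the 7 fits that left out an array.

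The 5 F1 genes, which include those of the central stalk, had a median of 0.097, or 0.049 without fl/fl 3. The 12 genes of the rotor ring, peripheral stalk and membrane part had a median of 0.21, or 0.12 without fl/fl 1. Atp5b, the catalytic β subunit, was at 0.18 (95% confidence interval -0.03 to 0.39). The c subunit of the rotor ring is made from 3 genes that differ in the part removed after import into mitochondria. Atp5g1 was at 0.46 (-0.11 to 1.03), Atp5g2 at 0.17 (-0.09 to 0.43) and Atp5g3 at 0.087 (-0.25 to 0.43). Atp5l was at 0.25 (-0.05 to 0.54), and its 6 probe sets gave values from 0.24 to 0.29. Scores of complex V were -0.14, 0.011 and -0.17 in fl/fl and 0.23, 0.0059, 0.10 and -0.031 in Δ/Δ.

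Other mitochondrial genes were read in the same fit. The mitochondrial ribosome, which makes the subunits encoded in mitochondrial DNA, had 12 of 77 genes higher and 0 lower with an unadjusted p under 0.05, at a median log2 difference of 0.15. Mrpl52 (0.37) had its smallest p, followed by Mrps36 (0.78), whose product is now also known as a part of the 2-oxoglutarate dehydrogenase complex. The scores of these 77 genes were -0.041, -0.016 and -0.19 in fl/fl and 0.19, -0.0092, 0.15 and -0.078 in Δ/Δ, highest in the same Δ/Δ 1 and Δ/Δ 3. Of 13 citric acid cycle genes, 1 was higher, Cs (0.42), the citrate synthase, with Suclg1 at 0.34 and a list median of 0.24, which was 0.073 without fl/fl 3. Of 37 assembly factors without a Nduf symbol, 1 was higher, the copper chaperone Cox17 (0.66), while Foxred1 was at -0.18 and the median at 0.0079. Import genes had 1 of 24 higher, the receptor Tomm22 (0.59), with Timm10 at 0.69 and a median of 0.082. Carriers of the inner membrane and porins had 1 of 10 higher, the pyruvate carrier gene Mpc1 (0.45), with Slc25a5, an ADP/ATP carrier, at 0.23.

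Lists without a higher gene were those of the electron carriers with ubiquinone synthesis (18 genes, median 0.029, with Gpd2 at -0.31 and Coq7 at 0.33) and of the regulators of mitochondrial biogenesis (19 genes, median -0.043, with the polymerase subunit genes Polg2 at -0.50 and Polg at -0.16). None of their members had an unadjusted p under 0.05. The cytosolic ribosome had 1 of 60 genes higher (Rps3a1, 0.24), with Rpl7 at 0.13 and a median of 0.014, which turned to -0.028 under cyclic loess, and scores between -0.057 and 0.042 over the 7 arrays. The share of higher genes was 15.6% for the mitochondrial ribosome, 10% for the carriers and porins, 7.69% for the citric acid cycle, 4.17% for import, 2.70% for the assembly factors and 1.67% for the cytosolic ribosome, where all but the first rest on 1 gene. Differences between lists were not tested.

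**Figure D4:**
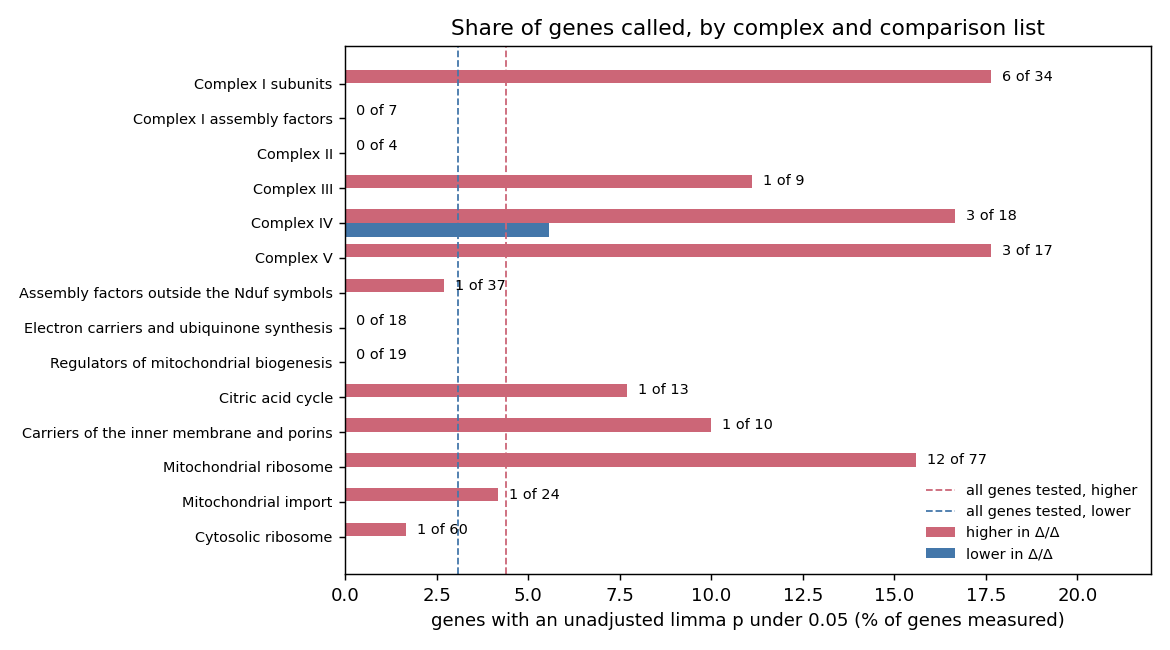
Share of measured genes (x axis, percent) with an unadjusted limma p under 0.05, for each complex and comparison list. Red bars are genes higher and blue bars genes lower in Cebpa Δ/Δ, numbers give the higher genes of all measured, and dashed lines mark the shares among all genes (4.4% higher, 3.08% lower). Complexes I, III, IV and V and the mitochondrial ribosome exceed the red line with more than 10%, on small numbers of genes.

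Cebpa and the sort markers were read to check the samples. Cebpa measured 5.54, 5.75 and 5.63 in fl/fl and 5.11, 5.24, 5.27 and 5.27 in Δ/Δ, a log2 difference of -0.41 (SE 0.07) without overlap. All these values lay below the median of all genes (5.86), so the share of Cebpa RNA lost cannot be read from them. Of 7 HSC and sort markers measured, Kit was at -0.34, Hlf at -0.51 and Slamf1, which encodes CD150, at -0.29, all at an unadjusted p over 0.05 and all with signal in every array. Cd48, whose protein the sort selected against, was higher in Δ/Δ (7.77 ± 1.02, SD, n = 4) than in fl/fl (5.02 ± 0.52, SD, n = 3). Neutrophil markers were lower in Δ/Δ for 8 of 10 genes, with summed intensities from 7696 to 20161 in fl/fl and from 1421 to 2256 in Δ/Δ, and macrophage markers were higher for 3 of 7, with sums from 344 to 478 and from 583 to 1154. The macrophage list scored 0.93 and 0.70 in the Δ/Δ arrays 1 and 3, and -0.096 and 0.15 in the Δ/Δ arrays 2 and 4. Lymphoid markers had 3 of 6 higher, mast cell markers 2 of 3, stromal and endothelial markers 1 of 4 and megakaryocyte markers 0 of 4. The part of these cell types in the respiratory chain difference was not tested.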

How the data were processed

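Gene expression in 7 HSC samples was measured on Affymetrix arrays. The deposited intensities came from the authors' Robust Multichip Average (RMA), run in Partek Genomics Suite by the study's methods, while the submitters' notes name RMA and affy. RMA subtracts background, equalises the distributions of the arrays and summarises probes, and therefore hides any difference in total RNA between cells. The probes' genome build is not given in the sources used here. The deposited intensities were linear (1.51 to 9840, array medians 46.2 to 50.4). The test had been planned for log2 values, and log2 of each intensity was therefore used, with no pseudocount. Mean correlations with the other arrays were 0.979 to 0.985. The number of arrays limits the precision.

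Of 35556 probe sets, 21789 had 1 gene symbol, 1621 several and 12146 none here. For 21698 of those with 1 symbol, the symbol was taken from RefSeq (GRCm38.p6) by Entrez number, whether or not it differed. For a gene with several probe sets, the one of highest mean signal was taken, and 0 per-sample columns stayed unused. The comparison, Cebpa Δ/Δ minus Cebpa fl/fl, used limma 3.58.1 in R 4.3.3 (lmFit, eBayes) with genotype as sole term, with Benjamini-Hochberg adjustment over 19938 genes. The fit was tested on simulated data.

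Members and lists were chosen with earlier results of these data known. Named were members with an unadjusted p under 0.05 (at most 8, at least 3 by p, in each complex), all Sdh genes, Cyc1, the isoform families, Cebpa and the 2 genes of smallest p in each comparison list. Genes named besides these, such as Ndufa7, Ndufa11, Ndufa12, Ndufb11, Atp5b, Atp5l, Uqcrc2, Uqcrfs1 and those with a sample that stood apart, were chosen after their values were seen. Alternatives were other normalizations, filters, probe set rules, variance estimates, array weights, a replicate block, and leaving out arrays. Leaving out arrays within the classes of complexes IV and V was chosen after seeing the data.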

Additional observations from a re-analysis of the deposited data

Results flagged for a closer look

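The 4 Cebpa Δ/Δ arrays of each of the 90 genes and of 7 group scores were checked for an array far from the other 3, by the gap to its nearest neighbour over the whole range. Of these 97 groups, 5 held such an array, and chance gives about 1 in 20. Δ/Δ 3 stood apart for Ndufa7, at a log2 value of 11.35 against 8.11 to 8.44 in the other Δ/Δ arrays, and for Atp5b, at 10.97 against 10.75 to 10.78. Δ/Δ 1 stood apart for Ndufaf3 (8.04 against 7.81 to 7.85), for Atp5k (10.51 against 9.89 to 9.98) and for Cox7a1 (5.15 against 5.09 to 5.10), the last within a very narrow range. The cause was not tested.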

How the results depend on the processing

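The count of 13 higher genes was 8 without moderation of the variance and 4 without both fl/fl 1 and Δ/Δ 3, of which 0 were among the 13, and it was 0 at the study's thresholds and 0 after adjustment. It ran from 1 to 25 when each array was left out in turn. The 1 lower gene was 0 at the study's thresholds and 0 after adjustment. Over all genes, the 877 higher and 615 lower were 566 and 362 when only the 9969 genes above the median level were tested (5.68% and 3.63%), 1284 and 349 with array medians subtracted and 589 and 370 without moderation, and the lower were 377 to 749 with each array left out. Subtracting array medians moved the median of all genes by 0.045, and that of the 90 genes to 0.25. Deviations of same-numbered arrays of the genotypes had correlations of -0.021, 0.10 and -0.18, against -0.20 to 0.33 for arrays of unlike number. These show no pairing by number, but so few arrays cannot exclude it. With the replicate block, 11 of the 90 genes were higher, 6 of them among the 13, and the counts over all genes were 740 and 579.

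For the 14 genes with an unadjusted p under 0.05, 238 alternatives were run, of which 0 turned the direction and 75 brought p to 0.05 or more. Cox6a1 was among these 75 without both fl/fl 1 and Δ/Δ 3, at a log2 difference of 0.30. Among the other members named by the rule above, 13 turned direction in at least 1 alternative. Genes named outside that rule were not counted, although Ndufa7 was -0.31 without Δ/Δ 3 and Uqcrc2 -0.024 without fl/fl 2. The 13 are listed here. With array medians subtracted, Sdha was 0.031, Sdhd 0.030, Cox8c 0.016 and Cox7b2 0.030. With array weights, Sdha was 0.028, Sdhd 0.098, Cox8a -0.0071 and Cox7b2 0.0013. With the replicate block, Sdha was 0.063, Sdhd 0.060 and Cox7b2 0.0087. Without fl/fl 1 and Δ/Δ 3, Sdha was 0.075, Sdhd 0.24, Cox8a -0.089, Cox7b2 0.025 and Atp5g3 -0.013. With cyclic loess, Ndufa4 was -0.0039, Cox7b2 0.0053 and Cox7b -0.0070. With each array left out, Sdha ran from -0.15 to 0.12, Sdhb from -0.10 to 0.20, Sdhd from -0.27 to 0.30, Cox4i1 from -0.067 to 0.16, Cox7a1 from -0.54 to 0.17, Cox7b from -0.077 to 0.16, Cox7b2 from -0.090 to 0.038, Cox8a from -0.035 to 0.14, Cox8b from -0.29 to 0.063, Ndufa4 from -0.061 to 0.097, Ndufa4l2 from -0.00011 to 0.15 and Atp5g3 from -0.059 to 0.18. Without fl/fl 3 the median of the citric acid cycle genes was 0.073 and that of the neutrophil markers -4.42, the median of the mast cell markers was 2.66 among genes above the median level, and that of the cytosolic ribosome was 0.058 with array medians subtracted and -0.028 with cyclic loess. The cause was not tested.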

Other observations

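Exactly equal log2 values in 2 or more arrays occurred in 25 of the 90 genes (27.8%) and in 63.6% of all genes, as for Ndufa8 (8.05 in Δ/Δ 3 and in Δ/Δ 4) and Cebpa (5.27 in Δ/Δ 3 and in Δ/Δ 4).

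NRF1 letters stood in the promoters of Atp5g2, Atp5k, Atp5l, Cox6a1, Ndufa8, Ndufa11, Ndufaf4, Ndufaf5, Uqcr11 and Uqcrc1, whose log2 differences ran from -0.27 (Ndufaf4) to 0.46 (Cox6a1). Of the 7 genes with YY1 letters, 5 were subunits of complex I (Ndufa9, Ndufc1, Ndufs4, Ndufs6 and Ndufs7), and in each of these the letters began 22 to 35 bases after the start.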
